A study of Mus musculus with 6 samples.

Results

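The genes described here are the chemokines and their receptors in mammary tumors of mice, compared between controls and animals fed DMHCA, a steroidal agonist of the liver X receptor (LXR). Members were chosen by name alone: symbols made of Ccl, Ccr, Cxcl, Cxcr or Ackr and a number, together with Cx3cl1, Cx3cr1, Xcl1 and Xcr1. The rule found 60 of the 55385 genes in the deposited tables, made up of 38 ligands, 18 signalling receptors and 4 atypical receptors. RNA sequencing libraries were deposited for 3 control and 3 DMHCA tumors, with totals of 46358654 to 63420620 expected counts. All mice were female MMTV-NeuT/ATTAC animals, which carry an activated rat ErbB2 gene under the MMTV promoter and an FKBPv-caspase-8 fusion under the FABP4 promoter, which is active in fat cells. In this model the dimerizer AP20187, given to 6-week-old mice by injection of 0.4 mg/kg, ablates part of the mammary fat, which fibrotic tissue then replaces. Treated mice also received DMHCA as 0.05% of their diet, or 100 mg/kg, from 8 weeks of age. The control label can be read as AP20187 with vehicle or as vehicle alone, but the study describes the sequenced tumors of both groups as coming from mice given AP20187. The labels name the tissue as mammary gland fibrosis where the study describes tumors. The study asked how DMHCA altered the surroundings of these tumors, including the immune cells in them.

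Chemokines are small secreted or membrane-bound proteins that direct the migration of leukocytes through receptors coupled to G proteins. Homeostatic chemokines, such as CXCL13 with its receptor CXCR5 and CCL19 and CCL21 with CCR7, place B cells, T cells and dendritic cells in lymphoid tissue. Inflammatory chemokines recruit monocytes, neutrophils and effector lymphocytes, and atypical receptors bind chemokines without signalling through G proteins and limit their supply.

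The promoters of 4 ligands are shown to set a pair of lymphoid chemokines, Cxcl13 and Ccl21a, beside 2 chemokines with NF-kappaB motifs, Ccl20 and Cxcl10, because lymphoid ligands spanned wide ranges between samples and the kappaB motif was found in a larger share of member windows than of all windows. Each is the 250 bases before the RefSeq start site on GRCm38.p6, printed 5′ to 3′ on the strand of the gene, with capitals at motifs found on either strand. They lie at chr5:95956689-95956938 (Cxcl13, plus strand), chr4:42773992-42774241 (Ccl21a, minus strand), chr1:83116516-83116765 (Ccl20, plus strand) and chr5:92348890-92349139 (Cxcl10, minus strand).
Cxcl13: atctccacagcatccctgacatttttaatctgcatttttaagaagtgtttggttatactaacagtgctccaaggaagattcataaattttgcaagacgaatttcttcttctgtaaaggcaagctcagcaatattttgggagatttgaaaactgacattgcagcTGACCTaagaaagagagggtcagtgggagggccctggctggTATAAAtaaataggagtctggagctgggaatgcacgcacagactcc
Ccl21a: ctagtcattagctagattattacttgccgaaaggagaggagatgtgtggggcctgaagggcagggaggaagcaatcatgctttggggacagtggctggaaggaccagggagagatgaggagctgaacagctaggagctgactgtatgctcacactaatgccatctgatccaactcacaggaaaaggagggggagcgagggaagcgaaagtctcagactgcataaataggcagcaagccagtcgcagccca
Ccl20: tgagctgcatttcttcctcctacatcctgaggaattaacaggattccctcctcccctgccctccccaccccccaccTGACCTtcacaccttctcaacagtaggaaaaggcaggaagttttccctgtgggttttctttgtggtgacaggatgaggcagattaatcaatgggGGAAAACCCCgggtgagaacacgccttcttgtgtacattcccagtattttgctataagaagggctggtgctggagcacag
Cxcl10: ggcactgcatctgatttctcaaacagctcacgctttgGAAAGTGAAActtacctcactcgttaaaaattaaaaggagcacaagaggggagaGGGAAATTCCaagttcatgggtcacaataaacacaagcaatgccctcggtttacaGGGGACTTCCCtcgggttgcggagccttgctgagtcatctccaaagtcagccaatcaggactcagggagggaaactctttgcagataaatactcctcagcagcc
In Cxcl13 the capitals mark a nuclear receptor half-site, AGGTCA, here on the opposite strand at positions -87 to -82 before the start site, and a TATA box, TATAAA, at -46 to -41. In Ccl20 they mark a half-site at -174 to -169, also on the opposite strand, and a kappaB consensus match at -80 to -71. In Cxcl10 they mark an interferon-response motif, which is GAAA on each side of 2 free bases, at -213 to -204 and 3 kappaB matches, of which the pair at -104 to -94 overlap. None of the searched motifs was found in the Ccl21a window.

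Motifs were counted in windows that also held the 50 bases after the start site, and RefSeq gave 52 such windows for 45 of the 60 members. The kappaB consensus was found in 23.1% of the member windows and in 8.46% of all 32851 windows. TATAAA was found in 26.9% against 13.6%, AGGTCA in 28.8% against 16.3%, and the interferon-response motif in 5.77% against 3.44%. A direct repeat of AGGTCA with 4 free bases between is the form of site classically bound by LXR with its partner RXR. It was found in 0 member windows and in 5 of all windows (0.0152%). An exact repeat this rare cannot show whether members hold LXR sites, and the study lists Ccl5 as containing an LXR response element. The 12 members with a kappaB match were Ackr2, Ccl1, Ccl9, Ccl20, Ccl27a, Ccr1, Ccr3, Ccr6, Cxcl1, Cxcl2, Cxcl3 and Cxcl10, and Ccl19, Cxcl10 and Cxcl14 held the interferon-response motif. A match describes the letters in the window and says nothing of binding.

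DMHCA libraries 1 and 3 differed far less than other libraries of a group, with a biological coefficient of variation of 0.0327 against 0.376 to 0.579 for the other pairs, and were counted as 1 sample. Control library 3 stood apart in lymphocyte and fat markers, and control library 1 in salivary gland markers, which summed to 305616 normalized counts there against 428 to 3662 in the other samples. The tumor epithelium markers Erbb2, Krt8, Krt18, Epcam, Cdh1 and Krt19 were detected in every sample and summed to 225647 to 341921 normalized counts. Adipocyte markers, 6 of 6 lower at an unadjusted p under 0.05, summed to 5462 to 41796 in the controls and 2158 to 2180.0 with DMHCA. At that threshold 4.08% of all genes tested were lower, the share to set beside this and the other lists. Without control library 3 that share was 3.27%. The labels do not tie libraries to animals, so p-values measure the spread between these samples. In bulk tissue, fewer cells of a type and less RNA per cell cannot be told apart.

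Values below are TMM-normalized counts, listed for control libraries 1, 2 and 3 and then for the merged DMHCA sample and DMHCA library 2. The test was edgeR's quasi-likelihood F-test, with a log2 fold change below 0 meaning a lower level with DMHCA. Of the 60 members, 53 passed the filter on low counts. By edgeR, 0 members and 0 of all 19427 genes tested had a Benjamini-Hochberg adjusted p under 0.05, and the smallest adjusted p was 0.644. At an unadjusted p under 0.05 there were 9 members and 1478 genes in all (7.61% of all genes).

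Most chemokine genes had a lower mean with DMHCA. The log2 fold change was below 0 for 46 of the 53 tested members (86.8%), against 52.0% of all genes tested, and its median was -0.88 against -0.029. Cxcr5, Ccl19, Cxcl13, Ccr4, Ccr6, Ccl20, Cxcl12 and Cxcl16 were lower at an unadjusted p under 0.05, where 4.08% of all genes were, and Ccr3 was higher, where 3.53% of all genes were. Of these, Ccr4 and Ccl20 passed the filter on low counts only through control libraries 1 and 3. The groups did not overlap for 14 lower members (12.2% of all genes) and 2 higher members, Ccr3 and Ccl25 (13.8% of all genes). Control library 3 was the highest sample for 40 of the 53 (27.4% of all genes). Without it, 35 of 51 tested members had a log2 fold change below 0 (49.2% of all genes), the median was -0.34 against 0.01 for all genes, and 3 members were lower (3.27% of all genes) and 0 higher at an unadjusted p under 0.05. The 3 were Ccl19, Ccr6 and Cxcr5.

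**Figure D1:**
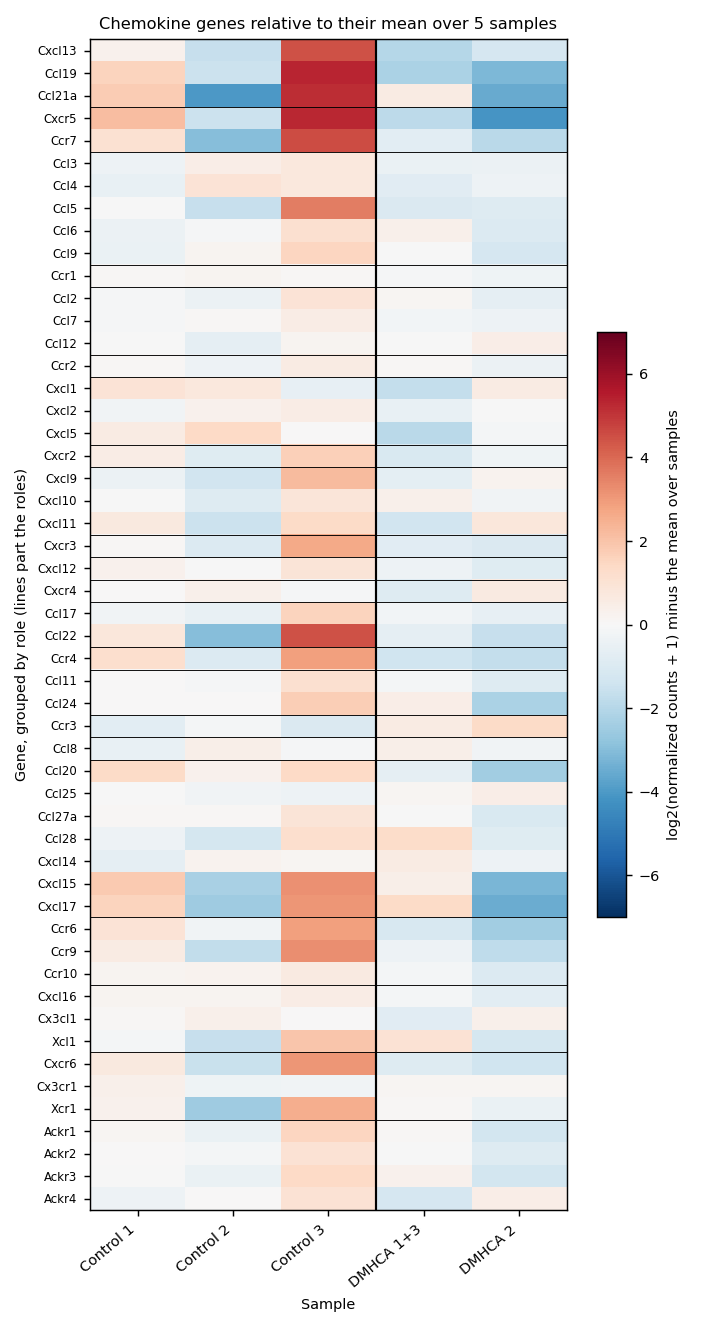
Color gives log2(normalized counts + 1) of 52 of the 53 tested members (vertical) in 5 samples (horizontal), relative to the gene's mean over the samples. The column of control library 3 is the highest for 39 of them, and the lymphoid genes at the top span wide ranges.

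Genes of the lymphoid axis, the homeostatic ligands Cxcl13, Ccl19, Ccl21a and Ccl21b with the receptors Cxcr5 and Ccr7, spanned wide ranges between samples, as did some other members such as Ccl22 and Cxcl15. Cxcl13, which attracts B cells to follicles, had 237, 62.6 and 4211 normalized counts in the controls and 47.2 and 83.0 with DMHCA. The DMHCA samples lay on both sides of control library 2 and under the other controls. Cxcl13 had a log2 fold change of -4.53 ± 1.85 (SE, unadjusted p = 0.0463), which was -1.21 without control library 3. Its receptor Cxcr5, found on B cells and follicular helper T cells, had 159, 11.4 and 1377 in the controls and 9.04 and 1.01 with DMHCA, so the groups did not overlap. Cxcr5 differed by -6.55 ± 2.22 on the log2 scale (unadjusted p = 0.0229), and by -3.95 without control library 3. Its gene overlaps Bcl9l on the other strand, and whether counting used strand is not given in the sources used here.

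Ccl19, a ligand of CCR7 made by lymphoid stroma and dendritic cells, had 178, 20.9 and 2448 normalized counts in the controls and 12.1 and 6.08 with DMHCA. The groups did not overlap, and even the lowest control exceeded the higher DMHCA sample. For Ccl19 the difference was -6.55 ± 2.16 on the log2 scale (unadjusted p = 0.0207), and -3.42 (unadjusted p = 0.0194) without control library 3. The other CCR7 ligand, Ccl21a, had 683, 11.4 and 7108 in the controls and 294 and 16.2 with DMHCA. Control library 2 was its lowest sample, the merged DMHCA sample exceeded DMHCA library 2 by 18.1-fold, and the groups overlapped. Ccl21a differed by -4.05 ± 2.34 on the log2 scale, with a 95% interval of -9.65 to 1.55, and by -1.16 without control library 3. Ccl21b, a near-identical copy that shares reads with Ccl21a, had 5.78, 0 and 142 and 1.51 and 0 normalized counts and was not tested. With all annotated copies summed, a sum chosen after the values were seen, Ccl21 had 694, 11.4 and 7392 in the controls and 299 and 16.2 with DMHCA. Their receptor Ccr7, which brings naive T cells and mature dendritic cells into lymph nodes, had 191, 10.4 and 2169 in the controls and 53.2 and 23.3 with DMHCA. Both DMHCA samples lay above control library 2 and below the other controls, with a log2 fold change of -4.35 ± 1.997 (-1.39 once control library 3 was left out). Ccl19 and Ccl21a both overlap 4930578G10Rik on the other strand.

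All 5 tested genes of the lymphoid axis kept 1 order among controls, with library 3 the highest and library 2 the lowest. That order was found for 34 of the 53 tested members and for 26.8% of all genes tested. Control library 3 exceeded the highest other sample by 17.8-fold for Cxcl13, 13.7-fold for Ccl19, 11.4-fold for Ccr7, 10.4-fold for Ccl21a and 8.66-fold for Cxcr5. Markers of lymphoid cells moved with these genes. The 10 B cell markers summed to 4018, 162 and 32889.6 normalized counts in the controls and 276 and 225 with DMHCA. For all 10 the mean was lower with DMHCA, 9 of them at an unadjusted p under 0.05 (4.08% of all genes), and none was at 0 in both DMHCA samples. Their median log2 fold change was -6.74, and -3.62 over the 6 tested without control library 3. The 10 T cell markers summed to 1726, 302 and 16236 in the controls and 848 and 448 with DMHCA, and Cd3d and Trac were at an unadjusted p under 0.05. Without control library 3, Trac remained at that threshold. Among 8 markers of lymph node stroma and high endothelium, 7 were tested, all 7 had a lower mean with DMHCA, and 4 were at an unadjusted p under 0.05. Their sum, 113607 to 204198 in the controls and 30634 to 38731 with DMHCA, was mostly Mfge8, which other cells also express. Without Mfge8 the sums were 3292, 1499 and 26791 in the controls and 711 and 414 with DMHCA. Without control library 3, Enpp2, Mfge8 and Glycam1 of the 5 then tested were at an unadjusted p under 0.05. Glycam1, a mucin of high endothelium, had 2027, 18.0 and 21665 in the controls and 40.2 and 29.4 with DMHCA, while Chst4 was at 0 in control library 2 and DMHCA library 2. The part of these cells in the lymphoid chemokine values was not tested.

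**Figure D2:**
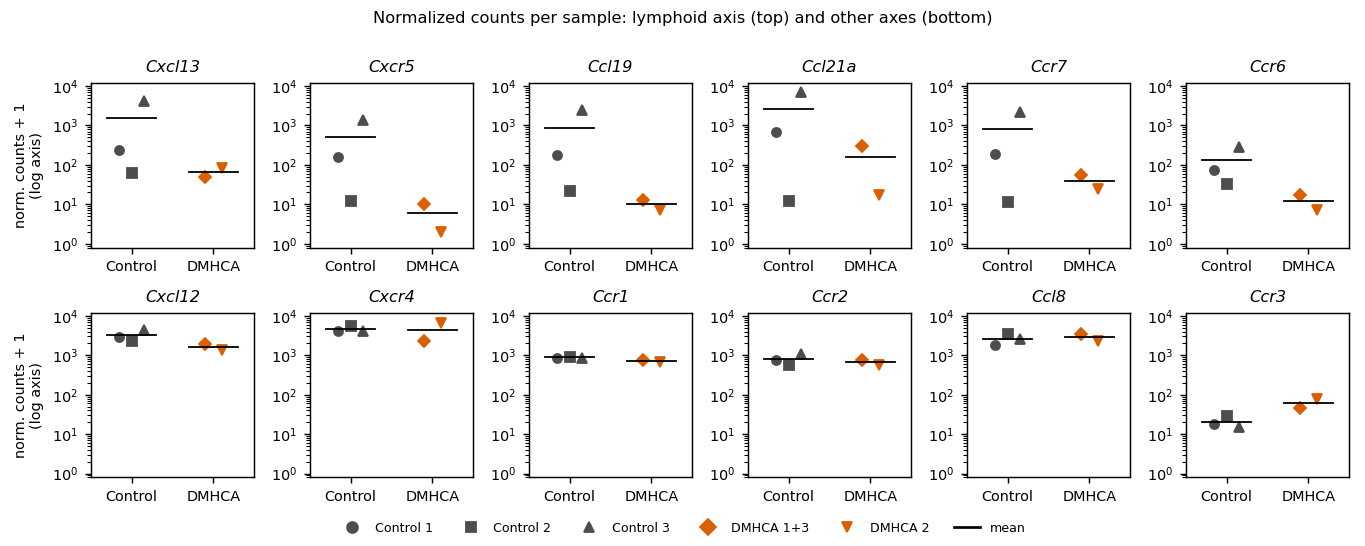
Each panel plots normalized counts + 1 of 1 gene on a log axis for 3 control and 2 DMHCA samples, with the group mean as a line. The lymphoid genes span from 6.08 to 2448 for Ccl19, while Ccr1 stays between 661 and 928.

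The chemokine pair for mucosal lymphocytes and dendritic cells, Ccl20 with its receptor Ccr6, was lower in both DMHCA samples. Ccr6, carried by B cells and Th17 cells, had 75.1, 31.3 and 278 normalized counts in the controls and 16.6 and 6.08 with DMHCA, with no overlap. Ccr6 differed by -3.46 ± 1.14 on the log2 scale (unadjusted p = 0.0208) and -2.19 (unadjusted p = 0.0314) without control library 3. Ccl20 was near the limit of detection at 12.5, 5.69 and 12.99 and 2.51 and 0, where the value of 0 leaves room for up to 3 reads in the library. Its groups did not overlap, with a log2 fold change of -2.73 ± 1.08 (unadjusted p = 0.0424). For Ccr4, the receptor of Th2 and regulatory T cells, 27.9, 5.69 and 95.2 and 4.02 and 3.04 were found, and the DMHCA samples lay just under the lowest control. Ccr4 differed by -3.54 ± 1.27 on the log2 scale (unadjusted p = 0.0291). Ccl20 and Ccr4 passed the filter on low counts only through control libraries 1 and 3, where they were high. Their calls therefore lend no support to a lower level with DMHCA. Neither gene passed without control library 1 or without control library 3, nor with edgeR on 6 libraries. The CCR4 ligand Ccl22, made by dendritic cells and macrophages, had 115, 7.59 and 1477 and 43.2 and 21.3, with control library 2 the lowest of all samples. Ccl17, the other CCR4 ligand, had 27.0, 21.8 and 98.5 and 27.6 and 21.3, and apart from control library 3 its samples lay close together. Without that library the log2 fold change went from -4.03 to -0.92 for Ccl22 and from -0.996 to 0.004 for Ccl17. The 8 dendritic cell markers summed to 1071 to 5252 in the controls and 1603 to 1642 with DMHCA, with a lower mean for all 8 and Siglech and Cd209a at an unadjusted p under 0.05, neither of them without control library 3. Without Fscn1, the gene with the highest value, the sums were 823, 462 and 2378 in the controls and 654 and 395 with DMHCA, and the part of these cells was not tested.

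Ligands and receptors of effector T cells were mostly highest in control library 3. Ccl5, a chemokine of T cells and NK cells, had 219.5, 71.2 and 2709.9 normalized counts in the controls and 107 and 116 with DMHCA. Both DMHCA values lay between those of control libraries 1 and 2, and the log2 fold change of -3.16 ± 1.53 was -0.38 without control library 3. Cxcr3, the receptor of activated T cells for interferon-induced chemokines, had 54.9, 26.6 and 339 and 30.1 and 25.3. The groups overlapped, and the log2 fold change of -2.33 ± 1.17 was -0.55 without that library. Its ligand Cxcl9 had 267, 140.5 and 1639.6 in the controls and 223 and 422 with DMHCA, and Cxcl10 had 169, 91.1 and 308 and 217 and 147. Apart from control library 3 the DMHCA samples were not the lower ones, and both signs turned. Cxcl9 went from -1.08 to 0.66 and Cxcl10 from -0.056 to 0.48 on the log2 scale when control library 3 was left out. Cxcl10 overlaps Art3 on the other strand, as does Cxcl11, annotated as a polymorphic pseudogene, which ranged from 10.4 to 82.2. Cxcr6, found on tissue-resident and activated T cells, had 145, 30.4 and 791 and 48.7 and 34.4, with control library 2 the lowest sample. Its log2 fold change was -2.95 ± 1.33, and -1.08 without control library 3. Its membrane-bound ligand Cxcl16 was far more abundant, with 3022, 3033 and 3808 and 2370.5 and 1568, and the groups did not overlap. Cxcl16 differed by -0.74 ± 0.29 (unadjusted p = 0.0395), and by -0.62 without control library 3 (unadjusted p = 0.0987). Without DMHCA library 2 the difference was -0.43. Cxcl16 overlaps Zmynd15 on the other strand. Xcl1, a ligand from NK and CD8+ T cells for XCR1 on cross-presenting dendritic cells, had 31.8, 10.4 and 135 and 71.8 and 14.2, with the merged DMHCA sample second to control library 3. Xcr1 itself ranged from 5.69 to 218.

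Cxcl12, the stromal ligand that retains CXCR4-bearing cells, was the most abundant member at an unadjusted p under 0.05 apart from Cxcl16. It had 2939, 2297 and 4449 normalized counts in the controls and 1888 and 1336 with DMHCA, and all controls exceeded both DMHCA samples. This gave a log2 fold change of -1.001 ± 0.36 (unadjusted p = 0.0301), and -0.70 (unadjusted p = 0.0746) without control library 3. The 7 fibroblast markers summed to 66122 to 162472 in the controls and 98604 to 109495 with DMHCA, 0 of 7 at an unadjusted p under 0.05, and their part was not tested. Cxcr4, the receptor, had 4243, 5431 and 4034 in the controls and 2249 and 6535 with DMHCA. The DMHCA samples were its lowest and its highest, with a log2 fold change of -0.057 and a 95% interval of -1.15 to 1.04. Ackr3, the atypical receptor that takes up CXCL12, had 479, 349 and 1273 and 601 and 196, a difference of -0.81 ± 0.74 that was -0.056 without control library 3.

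The monocyte and macrophage chemokine receptors had no member at an unadjusted p under 0.05. Ccr2, which draws monocytes from blood, had 774, 568 and 1095 normalized counts in the controls and 778 and 556 with DMHCA. Its samples overlapped, and the log2 fold change was -0.28 (95% interval -1.25 to 0.68). Among its ligands, Ccl2 had 378, 303 and 759.7 and 441 and 251.1, Ccl7 had 314, 355 and 466 and 291 and 260.2, and Ccl12 had 184, 123 and 218 and 181 and 264. Ccl7 was lower in both DMHCA samples than in all controls, whereas Ccl2 and Ccl12 overlapped. The 3 ligands differed by -0.47, -0.46 and 0.35 on the log2 scale, none at an unadjusted p under 0.05, and without control library 3 by 0.02, -0.28 and 0.53. Ccr1, a receptor of monocytes and neutrophils, had 874, 928 and 860.4 in the controls and 767 and 661 with DMHCA. Both DMHCA samples were lower, by -0.31 on the log2 scale with a 95% interval of -1.03 to 0.40. Cx3cr1, a receptor of macrophages and patrolling monocytes, had 2150.2, 1344 and 1397 and 1829.6 and 1842, with the DMHCA samples between the controls and an interval of -0.55 to 0.89. These intervals include 0, and those of Ccr1 and Ccr2 leave room for a decrease of more than 1 on the log2 scale. Summed, Ccr1, Ccr2 and Cx3cr1 reached 2839 to 3799 in the controls and 3059 to 3375 with DMHCA, against 117 to 17454 and 129.6 to 417 for the lymphoid axis. The 10 macrophage and monocyte markers, 0 of them at an unadjusted p under 0.05, summed to 59509 to 109265 in the controls and 43756 to 58496 with DMHCA. The groups of sums did not overlap, but without Lyz2, the gene with the highest value, the sums were 35297, 43751 and 46038 in the controls and 38984 and 29223 with DMHCA, which overlapped.

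Among the ligands of CCR1 and the remaining macrophage chemokines, Ccl6, Ccl9 and Ccl3 were highest in control library 3, Ccl4 and Ccl8 in control library 2 and Cx3cl1 in DMHCA library 2. Ccl6 had 1971, 2535 and 5676 normalized counts in the controls and 3351 and 1369 with DMHCA, and its neighbour Ccl9 had 1069.8, 1698 and 4187 and 1475 and 649. Both are myeloid chemokines of mice, and both were over 2-fold higher in the merged DMHCA sample than in DMHCA library 2. The inflammatory ligands Ccl3, with 37.6, 65.5 and 80.1 and 34.7 and 35.4, and Ccl4, with 35.6, 102 and 86.6 and 29.1 and 40.5, were scarce. Ccl3 did not overlap between the groups, while Ccl4 was lowest in the merged DMHCA sample and then in control library 1. Log2 fold changes were -0.52, -1.12, -0.80 and -1.11 for Ccl6, Ccl9, Ccl3 and Ccl4, and 0.065, -0.38, -0.56 and -0.99 without control library 3. Ccl8, which attracts monocytes and, through CCR8, Th2 cells, had 1853, 3562 and 2545 in the controls and 3478 and 2267 with DMHCA. Its samples interleaved, with a log2 fold change of 0.11 and a 95% interval of -0.74 to 0.97. Its receptor Ccr8 was barely detected, at 3.85, 0 and 21.6 and 2.01 and 1.01, and was not tested. Cx3cl1, the membrane-bound ligand of CX3CR1, had 3534, 4216 and 3374 and 1896 and 4263, and DMHCA held both its lowest and its highest sample.

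Ccr3, the eotaxin receptor carried by eosinophils, was the 1 member higher with DMHCA at an unadjusted p under 0.05. It had 17.3, 27.5 and 14.1 normalized counts in the controls and 45.2 and 77.0 with DMHCA, and both DMHCA samples exceeded every control. The log2 fold change was 1.63 ± 0.59 (unadjusted p = 0.0301), and 1.43 (unadjusted p = 0.0634) without control library 3. Its ligands went the other way in the mean. Ccl11, or eotaxin, had 371, 343 and 801 and 341 and 198 with no overlap, and Ccl24 had 32.7, 32.3 and 109 and 44.2 and 6.08, where the merged DMHCA sample exceeded DMHCA library 2 by 7.27-fold. Ccl11 differed by -0.90 ± 0.56 and Ccl24 by -1.18 ± 1.01 on the log2 scale, neither at an unadjusted p under 0.05, and by -0.40 and -0.34 without control library 3. The third ligand, Ccl26, had 0 counts in every library.

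The neutrophil chemokines split the DMHCA samples. Cxcl1, a CXCR2 ligand, had 1005, 857 and 346 normalized counts in the controls and 162 and 760.4 with DMHCA, and Cxcl5 had 103, 179 and 69.3 and 17.6 and 62.8. The merged DMHCA sample was the lowest for both. The groups did not overlap for Cxcl5, whereas control library 3 lay between the DMHCA samples for Cxcl1. On the log2 scale Cxcl1 differed by -0.68 ± 0.75 and Cxcl5 by -1.55 ± 0.78 (unadjusted p = 0.0884). These are among the few members not highest in control library 3, and without it the values were -1.02 and -1.83. Without DMHCA library 2 they were -2.15 (unadjusted p = 0.0396) and -2.69 (unadjusted p = 0.0329). Cxcr2, the receptor, had 141, 52.2 and 309.5 and 46.2 and 79.0 with overlap, and differed by -1.42 ± 0.83, or by -0.63 without control library 3. Cxcl2 ranged from 23.1 to 47.6, while Cxcl3 and the receptor Cxcr1 stayed at or under 8.66 and were not tested. The 10 neutrophil markers summed to 803 to 1143 in the controls and to 407 and 2688 with DMHCA. Of the last value 2235 was S100a8 alone, and without that gene the sums were 709.7, 564 and 774 in the controls and 345 and 454 with DMHCA, lower in both DMHCA samples than in every control. Of 7 tested, Retnlg was lower at an unadjusted p under 0.05, the defining marker Ly6g was at 0 in both DMHCA samples and had at most 3.25 in a control, and the part of neutrophils in these values was not tested.

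Among the mucosal and skin chemokines, Cxcl14, Ccl25 and Ccl28 had a higher mean with DMHCA. Cxcl14, an epithelial chemokine, had 2016, 3680.3 and 3402 normalized counts in the controls and 4539 and 2423 with DMHCA, and Ccl25, the ligand of CCR9, had 329, 284 and 267 and 377 and 462. Ccl25 did not overlap, with a log2 fold change of 0.51 ± 0.39, and Cxcl14 differed by 0.20 ± 0.39. Ccl25 overlaps Elavl1 on the other strand, as Ccl27a does Il11ra1. The skin chemokine Ccl27a had 279, 278 and 489 and 254 and 125, lower in both DMHCA samples by -0.88 ± 0.55 on the log2 scale. This was -0.56 without control library 3 and -0.41 without DMHCA library 2. Cxcl15 had 99.2, 4.75 and 258 and 35.2 and 2.03, and Cxcl17 had 31.8, 0.949 and 93.1 and 26.6 and 0. Each of these epithelial chemokines was near 0 in control library 2 and DMHCA library 2 and higher in the other samples, across the groups. Ccl28 shared this order in part, from 20.9 in control library 2 to 124 in the merged DMHCA sample, with a log2 fold change of 0.39 ± 0.94 that was 1.35 without control library 3. The CCR9 and CCR10 receptors ranged from 9.11 to 331 and from 13.2 to 41.1. Ccl27b had 0 counts in every library, and Ccl1 stayed at or under 12.99 and was not tested.

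All 4 atypical receptors were highest in control library 3. Ackr1, which carries chemokines across venules, had 102, 65.5 and 266 normalized counts in the controls and 97.9 and 37.5 with DMHCA. Ackr4, a scavenger of CCL19, CCL20, CCL21 and CCL25, had 56.8, 73.1 and 150.4 and 32.1 and 102, with DMHCA holding its lowest and second highest samples. The log2 fold changes of Ackr1 and Ackr4 were -1.09 ± 0.81 and -0.48 ± 0.74, or -0.30 and 0.035 without control library 3. Ackr2, a scavenger of inflammatory CC chemokines, ranged from 33.4 to 129 and overlapped between the groups. Ackr1 overlaps Cadm3 on the same strand, and Cx3cr1 overlaps Gorasp1, Csrnp1 and Xirp1 on the same strand and other genes on the opposite one. Ccl2, Ccl6, Ccr9, Ccr10, Cxcl15, Cxcl17, Cxcr6, Xcl1 and Ackr4 also overlap genes on the other strand.

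**Figure D3:**
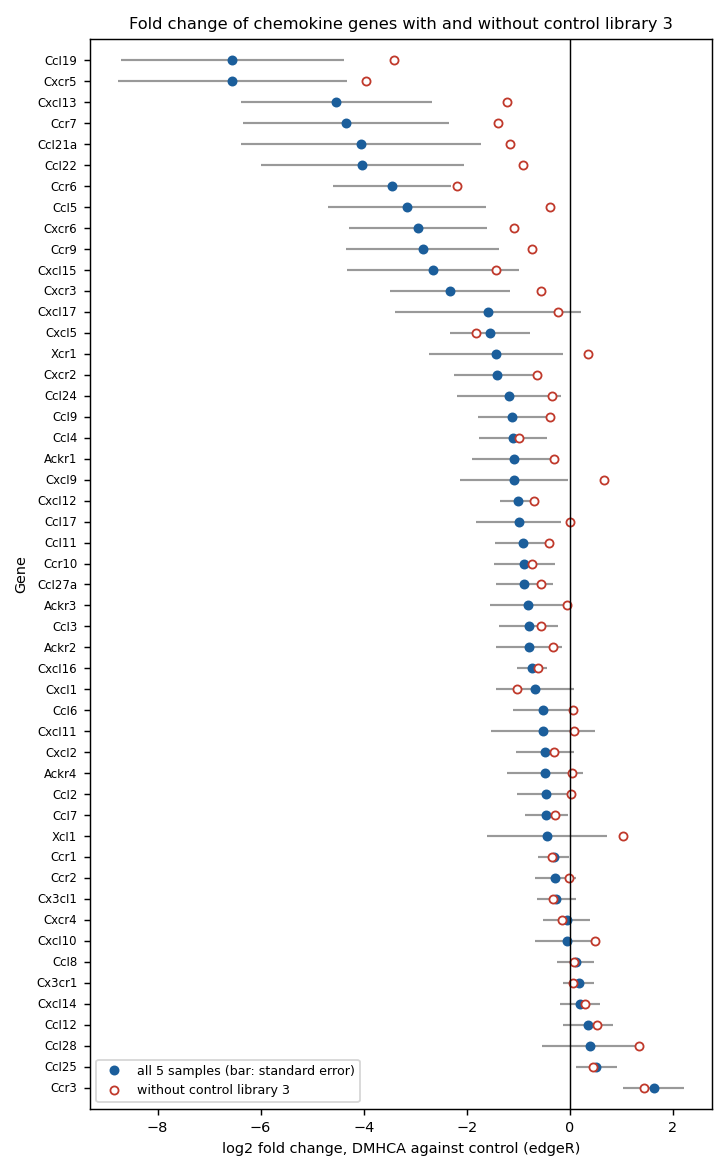
The log2 fold change of DMHCA against control (horizontal) of 50 of the 51 members tested in both fits is plotted for all 5 samples (filled, with the standard error) and without control library 3 (open). The open points of Cxcl13, Ccr7, Ccl22 and Ccl5 lie between -1.39 and -0.38, and those of Cxcr5 and Ccl19 at -3.95 and -3.42.

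The weight of single samples differed by role. The tested lymphoid ligands had a median log2 fold change of -4.53, and -1.21 without control library 3. The interferon-induced CXCR3 ligands went from -0.52 to 0.48, and the CXCR2 ligands from -0.68 to -1.02. Across the 53 tested members, control library 3 exceeded the highest other sample by over 2-fold for 24 and over 5-fold for 10. The 10 were Cxcl13, Ccl19, Ccl22, Ccl5, Ccr7, Ccl21a, Cxcr5, Ccr9, Cxcr3 and Cxcr6. Only 7 members stayed within 2-fold between their lowest and highest samples. The DMHCA samples also differed from each other, with 15 members over 2-fold higher and 6 over 2-fold lower in the merged sample than in DMHCA library 2, and the 6 were Ackr4, Cx3cl1, Cxcl1, Cxcl5, Cxcl11 and Cxcr4.

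**Figure D4:**
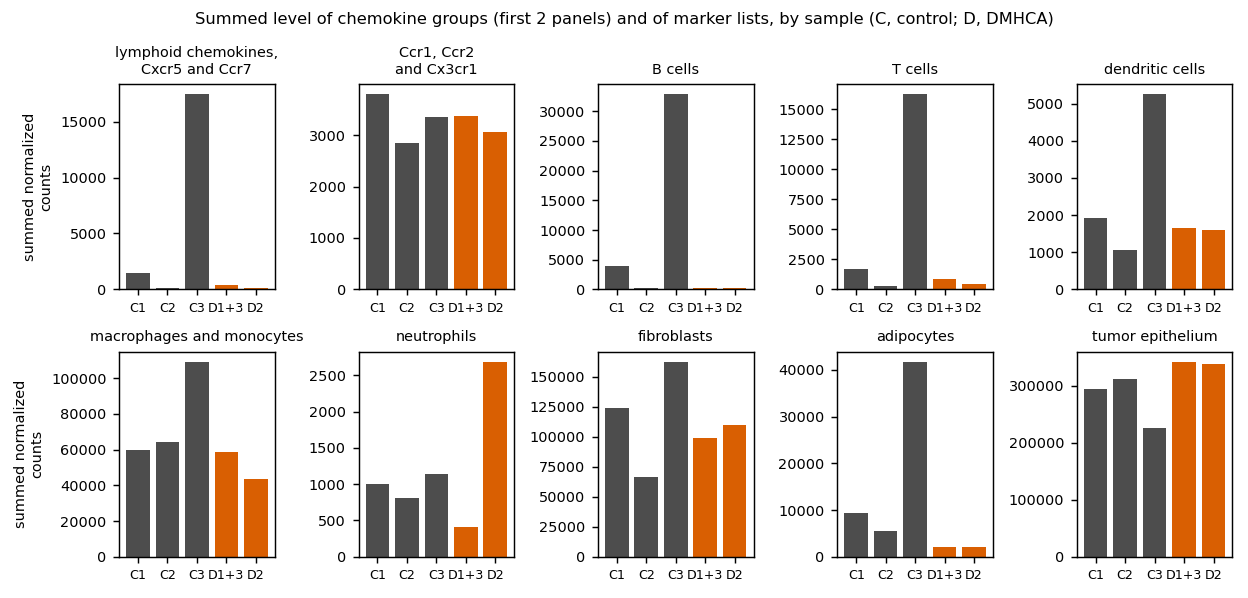
Bars give summed normalized counts (vertical, each panel with its own scale from 0) of lymphoid chemokine genes, of 3 myeloid receptors and of 8 marker lists in 3 control and 2 DMHCA samples. The lymphoid chemokines, B cell and T cell markers share a high bar in control library 3, as do the dendritic cell and adipocyte markers. The macrophage and fibroblast markers are also highest there, while the 3 myeloid receptors stay between 2839 and 3799.

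Levels between genes were compared as TPM, which accounts for gene length. Ccl8 had the highest level of all members by the control median and the DMHCA mean, with a median of 179 TPM in the controls and a mean of 225 TPM with DMHCA. In control library 3 Ccl21a, at 245 TPM, and Ccl5 lay above it. Among receptors Cxcr4 led, with a median of 68.5 TPM and a mean of 80.3 TPM, and its DMHCA samples at 37.7 and 123 TPM spanned the 3 controls. The next ligands by the control median were Ccl6 at 60.8, Cxcl14 at 43.3, Cxcl16 at 42.3 and Cxcl12 at 33.8 TPM. Neighbours in this order overlapped in their ranges, as Cxcl14 at 32.0 to 49.8 TPM and Cxcl16 at 32.9 to 52.7 TPM did over the controls. Summed TPM of all members was 694, 606 and 1636 in the controls and 731 and 646 with DMHCA. The lymphoid axis made up 6.56%, 0.426% and 30.6% of that sum in the controls and 1.85% and 0.569% with DMHCA.

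**Figure D5:**
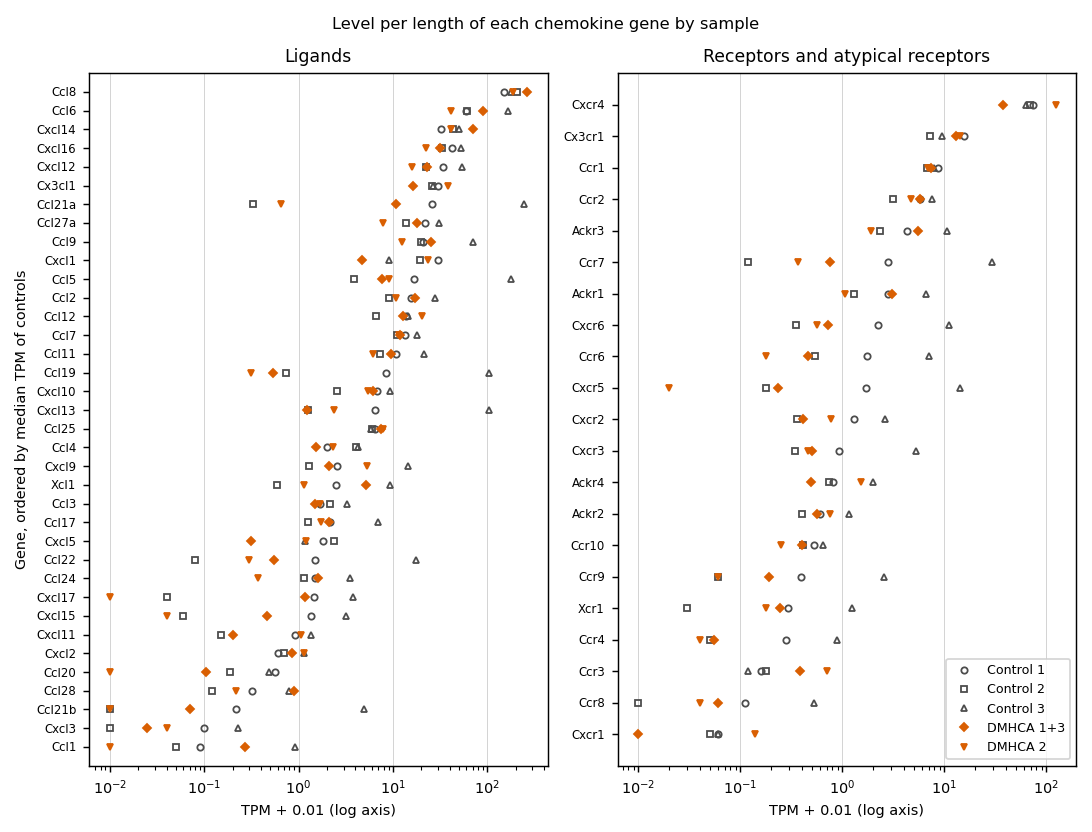
TPM + 0.01 of the members above 0 and reported by name is plotted on a log axis for ligands (left) and receptors (right), 5 samples each, ordered by the control median. Ccl8 and Cxcr4 lie at the top of their panels, at 179 and 68.5 TPM in the median control.

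Other genes of the chemokine system were taken from 4 lists. Of 30 tested genes for signalling downstream of the receptors (G protein subunits, arrestins, kinases, Rac and its activators, and RGS proteins), 0 were lower and Elmo1 was higher at an unadjusted p under 0.05, where 3.53% of all genes were higher, so a share near the background. Elmo1, a partner of DOCK proteins in activating Rac, had 3078, 3548 and 2689 normalized counts in the controls and 5537 and 5894 with DMHCA, a log2 fold change of 0.88 ± 0.24. Both DMHCA samples exceeded every control. Of 17 genes for adhesion and homing, Itgax, Madcam1 and Glycam1 were lower, where 4.08% of all genes were, and 0 higher. Without control library 3, Glycam1 alone of the 15 then tested was lower at that threshold. Of 18 tested inducers of chemokine genes, Ltb and Il1b were lower (4.08% of all genes). Ltb, a subunit of the lymphotoxin that drives lymphoid chemokines, had 777, 83.5 and 4643 in the controls and 147 and 80.0 with DMHCA, with a log2 fold change of -4.01 ± 1.57 that was -1.93 (unadjusted p = 0.0995) without control library 3. Il1b had 695, 1499 and 536 and 356 and 389.8 without overlap, -1.29 ± 0.53, and -1.56 without that library. Of 8 tested chemokine-like genes outside the naming rule, Rarres2, which encodes chemerin, was lower, with 981, 1312 and 3425 and 759.9 and 475, and its log2 fold change of -1.63 was -0.90 (unadjusted p = 0.0629) without control library 3. The median log2 fold changes of the 4 lists were -0.31, -0.93, -0.41 and -0.66 in the order given, and without control library 3 they were -0.077, -0.14, -0.10 and -0.41. The general leukocyte markers, such as Ptprc, summed to 31393 to 65358 in the controls and 17524 to 37223 with DMHCA, with a lower mean for 6 of 6 and Cd52 at an unadjusted p under 0.05. Without Lcp1, the gene with the highest value, the sums were 11907, 8090.4 and 42536 in the controls and 8572 and 6517 with DMHCA.

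The calls depended on the tool and on counting DMHCA libraries 1 and 3 as 1 sample. With DESeq2 and each of the 6 libraries taken as its own sample, 7 members passed an adjusted p of 0.05, where 4.37% of all genes did. They were Ccl5, Ccl19, Ccr4, Ccr6, Cxcl13, Cxcr5 and Cxcr6, all lower with DMHCA (2.95% of all genes). DESeq2 on the 5 samples gave 2 (1.2% of all genes), Ccl19 with an adjusted p of 0.0489 and Ccr6 with 0.0423, both lower (0.957% of all genes). The study lists Cxcl13, Ccl5 and Ccl19 as lower on these same libraries, so their direction here is not independent evidence. For a network of lower genes it also reports qRT-PCR results close to the sequencing, and for CCL5 less staining in tissue with DMHCA. At an unadjusted p under 0.05 by edgeR, lower members numbered 4 without control library 1 (3.37% of all genes), 17 without control library 2 (6.48%), 3 without control library 3 (3.27%) and 4 without DMHCA library 2 (1.48%), against 8 with all samples (4.08%). The 4 without DMHCA library 2 were Cxcl1, Cxcl5, Cx3cl1 and Cxcr4, and none of the 8 was among them. At an unadjusted p under 0.05 DESeq2 gave 14 lower members on 5 samples (4.35% of all genes) and 18 on 6 libraries (6.21%), and limma on log2(TPM + 0.5) gave 1 (1.83%). TPM also moved the centre of all genes, to a median of 0.13 with 38.8% of genes and 42 of 53 members below 0, and left 6 lower members without overlap (6.97% of all genes).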

How the data were processed

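RNA of snap-frozen tissue from 3 control and 3 DMHCA-treated mice was sequenced. The submitters' processing notes name FastQC 0.11.9, cutadapt 2.9, Bowtie2 2.4.1, RSEM 1.3.1 and the mm10 build. For each library the authors deposited RSEM's expected counts per gene, which are not normalized and need not be whole, with TPM scaled by the authors for gene length and library total. The deposited FPKM values were not used. The strand setting is not given in the sources used here.

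Expected counts were rounded (46358654 to 63420620 per library), and DMHCA libraries 1 and 3 were summed as 1 sample. The comparison of 3 control with 2 DMHCA samples used edgeR 4.0.16 and R 4.3.3 (TMM, filterByExpr at its default minimum count, 10, and total, 15, quasi-likelihood F-test, Benjamini-Hochberg adjustment over 19427 genes). Standard errors were derived from each log2 fold change and its F statistic. Depth limits genes of a few counts, and intervals cover the spread between samples. The edgeR fit was tested on simulated data. Alternatives were DESeq2 1.42.0, edgeR on 6 libraries with and without a replicate block, other size factors, no filter on low counts, limma 3.58.1 on log2(TPM + 0.5), and each library left out. The members, and the lists for signalling, adhesion and homing, inducers, chemokine-like genes and cell types, were chosen with earlier results of these data known. Members named with all values were those at an unadjusted p under 0.05, Cxcl13, Ccl5 and Ccl19, which the study names, the most abundant of each role, and ligand and receptor pairs with a mean of at least 1 TPM. Xcr1, Ackr2 and others are given by range. The values of 1 member, which is in the counts of members, and of 1 adhesion gene are not reported here. Same-numbered libraries came from different mice and were not treated as pairs. Promoter sequences are from RefSeq (GRCm38.p6). Tables were handled with pandas 2.3.3 and plots drawn with matplotlib 3.10.9.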

Additional observations from a re-analysis of the deposited data

How the results depend on the processing

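By edgeR, 0 members passed an adjusted p of 0.05 under every edgeR and limma setting run, and 2 did with DESeq2 on 5 samples and 7 with DESeq2 on 6 libraries, where 244 and 882 genes in all passed. Without a filter on low counts edgeR gave 16 genes. Members lower at an unadjusted p under 0.05 numbered 8 (4.08% of all genes), against 14 (4.35%) and 18 (6.21%) with DESeq2 on 5 samples and 6 libraries, 13 (8.03%) with edgeR on 6 libraries, 17 (5.1%) without the filter and 1 (1.83%) with limma on TPM. The median log2 fold change of members was -0.88, and -0.49 on TPM, where that of all genes was 0.13. Lower members without overlap numbered 14 (12.2% of all genes), against 9 (10.8%) with edgeR and 11 (7.59%) with DESeq2 on 6 libraries, and 6 (6.97%) on TPM. The causes were not tested.

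Same-numbered libraries had correlations of -0.0585, 0.342 and 0.359 between their deviations from the group means. Control library 3 also had 0.346 with DMHCA library 1. Since DMHCA libraries 1 and 3 are near-identical, these values cannot show whether the replicate numbers pair the libraries. With the replicate block on 6 libraries, edgeR gave 0 genes at an adjusted p under 0.05, 7 lower members (8.08% of all genes) and 1 higher (9.1%) at an unadjusted p under 0.05, a median of -0.77 and 9 lower members without overlap (10.8%).

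With 1 library left out at a time, lower members at an unadjusted p under 0.05 numbered 3 to 17 and higher members 0 to 1, the median was -1.04 to -0.34, lower members without overlap numbered 13 (without control library 3, 16.7% of all genes) to 29 (without control library 2, 21.5%) and higher ones 2 to 5 (the latter without DMHCA library 2, 26.2%), and 0 members and 0 genes passed the adjusted p. Without DMHCA library 2, 1 DMHCA sample is left and is assumed to vary like the controls.

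Of the single-gene comparisons of members named with all values, 550 kept their direction and their side of an adjusted p of 0.05. Another 9 passed it only with DESeq2, and 19 changed sign. No member passed that adjusted p in the main fit, so keeping its side says little. Without control library 3, Cxcl13 (0.165), Cxcl12 (0.0746), Cxcl16 (0.0987) and Ccr3 (0.0634) lost an unadjusted p under 0.05 by edgeR. Ccl19, Ccr6 and Cxcr5 kept it. Cxcl10 turned to 0.052 with DESeq2 on 6 libraries, 0.015 with edgeR on 6 libraries, 0.16 with the block and 0.057 on TPM, and Xcl1 to 0.18 with the block. On TPM, Cxcr4 turned to 0.0039. The other reversals came with 1 library left out, where the log2 fold change ranged from -0.39 to 0.48 for Cxcl10, -0.94 to 1.04 for Xcl1, -1.57 to 0.66 for Cxcl9, -1.35 to 0.0044 for Ccl17 and -0.72 to 0.020 for Ccl2, all lowest without control library 2 and highest without control library 3. The range was -0.81 (without control library 1) to 0.065 (without control library 3) for Ccl6, -1.49 (without DMHCA library 2) to 0.035 (without control library 3) for Ackr4, and -0.98 (without DMHCA library 2) to 0.084 (without control library 2) for Cxcr4. Ccl8 ranged from -0.089 to 0.43 and Cxcl14 from -0.027 to 0.62, lowest without control library 1 and highest without DMHCA library 2. Among the tested members given by range, Xcr1 turned to 0.35 and Cxcl11 to 0.089 without control library 3, and Ccl28 to -0.014 without control library 2.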

Other observations

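Chemokine genes lie in clusters. With all samples, every tested gene of those on chromosomes 4, 5 and 8 had a log2 fold change below 0. The clusters on chromosomes 9 and 11 held both signs. Beside this, 86.8% of all tested members and 52.0% of all genes were below 0. Without control library 3, Cxcl9 (0.66), Cxcl10 (0.48) and Cxcl11 (0.089) on chromosome 5 and Ccl17 (0.0044) on chromosome 8 were above 0. The chromosome 11 cluster holds 11 members, from Ccl2 to Ccl4, and its 10 tested genes had log2 fold changes of -3.16 (Ccl5) to 0.35 (Ccl12), with a median of -0.66. The receptor cluster on chromosome 9, with 10 members, ran from -2.95 (Cxcr6) to 1.63 (Ccr3) over 9 tested genes. On chromosome 5 the 7 tested CXC ligands ran from -2.65 (Cxcl15) to -0.056 (Cxcl10). On chromosome 4 the 3 tested ligands ran from -6.55 (Ccl19) to -0.88 (Ccl27a), and on chromosome 8 the neighbours Ccl22, Ccl17 and Cx3cl1 had -4.03, -0.996 and -0.27. Control library 3 was the highest sample for 7 of the 10, 6 of the 9, 5 of the 7, 3 of the 3 and 2 of the 3 tested genes of these clusters. It was the highest for 75.5% of all tested members and 27.4% of all genes.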
